A study of Arabidopsis thaliana with 16 samples.

Results

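The AP2/ERF family is one of the largest groups of plant transcription factors. The genes described here were found by their product description in the TAIR10 annotation: 151 of 27444 nuclear protein-coding genes carried the words Integrase-type DNA-binding, ethylene response factor, ethylene-responsive or AP2, after 3 genes were left out by name. The description is an imperfect guide to the family. According to the InterPro domains in the same annotation, 99 of the 151 members held an AP2/ERF domain, 39 held only the B3 DNA-binding domain and 13 held neither, most of these being lipid or sugar phosphatases of the PAP2 type. Another 44 genes with an AP2/ERF domain, among them CBF1, CBF2 and CBF3, were described in other words and stood outside the rule. Values are given mainly for the 99 members with the AP2/ERF domain, with the other 2 classes and the 44 relatives beside them.

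The data were broad peak lists from chromatin immunoprecipitation with sequencing (ChIP-seq) of 2 histone marks in Arabidopsis thaliana. H2Aub, monoubiquitinated histone H2A, was profiled in 3 Col-0 and 3 ubp5 libraries, and H3K27me3, trimethylated lysine 27 of histone H3, in 2 and 2. Col-0 is the wild-type accession, and ubp5 is a CRISPR-Cas9 line in that background with a deletion in the gene of the ubiquitin-specific protease UBP5, so the mutant is represented by a single line. All material was whole seedlings 12 days after germination, and therefore mixed cell types, in which a shorter peak and a mark held by fewer cells cannot be told apart.

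Proteins of the family bind DNA through the AP2/ERF domain. The AP2 subfamily holds regulators of meristems, flowers and roots, the DREB subfamily holds regulators of cold, drought and heat responses that bind the dehydration-responsive element, and the ERF subfamily holds regulators of ethylene, jasmonate, wounding, hypoxia and cuticle responses that bind the GCC box. Many of these genes are silent until a stimulus or a developmental stage calls for them. In plants, H2Aub is deposited by Polycomb repressive complex 1 and H3K27me3 by Polycomb repressive complex 2, and genes under H3K27me3 are commonly kept off. UBP5 belongs to the proteases that take ubiquitin off proteins, and the design asks what its loss does to H2Aub and H3K27me3.

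A gene was called marked where a peak with a score over 30 covered at least 1 bp of it in at least 2 libraries of a genotype. The score is 10 times the −log10 q of the peak. The covered length is the number of bases of the annotated gene under such peaks in 1 library. One library stood apart: the H2Aub list of ubp5 replicate 2 held 9786 peaks over 10.9 Mb, against 16449 peaks over 22.5 Mb and 19014 peaks over 27.8 Mb in ubp5 replicates 1 and 3. The Col-0 H2Aub lists covered 11.6 to 21.2 Mb, and the 4 H3K27me3 lists 14.2 to 16.6 Mb. In 13 of the 99 AP2/ERF-domain members (13.1%) all H2Aub libraries but ubp5 replicate 2 had a peak, against 2093 of all genes (7.63%). In the study's own listing of sequencing depth, whose values are not used here, this library has the fewest uniquely mapped reads of the 6 H2Aub libraries and ubp5 replicate 3 the most. The part of depth in the peak lengths was not tested. Results that rest on replicate 2 are given with and without it.

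DNA sequence at the gene start is shown first for the members on which the results turn. Each window runs from 250 bases before to 50 bases after the annotated gene start, on the gene's strand, read from the RefSeq copy of the TAIR10.1 assembly, whose nuclear chromosomes are those of TAIR10. Capitals mark matches, on either strand, to the GCC box GCCGCC, the dehydration-responsive element core CCGAC, the telobox AAACCCTA or the repeat GAGAGAGA. ORA47 and CRF7 are shown because H2Aub covered them in every ubp5 library and in no Col-0 library, and HRD because it had H2Aub peaks in every Col-0 library and in 1 ubp5 library.
ORA47, chr1:28143601-28143900, plus strand: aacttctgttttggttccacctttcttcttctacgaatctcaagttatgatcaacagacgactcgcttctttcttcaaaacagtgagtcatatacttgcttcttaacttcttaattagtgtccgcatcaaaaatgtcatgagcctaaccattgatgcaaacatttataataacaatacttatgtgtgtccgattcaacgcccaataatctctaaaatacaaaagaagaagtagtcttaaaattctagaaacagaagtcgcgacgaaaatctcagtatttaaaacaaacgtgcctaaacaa
CRF7, chr1:8135985-8136284, minus strand: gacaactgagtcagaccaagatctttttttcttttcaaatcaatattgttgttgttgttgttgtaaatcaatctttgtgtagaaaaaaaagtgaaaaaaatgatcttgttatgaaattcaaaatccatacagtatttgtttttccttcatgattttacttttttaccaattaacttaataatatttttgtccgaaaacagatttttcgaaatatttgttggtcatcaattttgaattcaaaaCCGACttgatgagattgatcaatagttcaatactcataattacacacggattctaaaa
HRD, chr2:15294808-15295107, minus strand: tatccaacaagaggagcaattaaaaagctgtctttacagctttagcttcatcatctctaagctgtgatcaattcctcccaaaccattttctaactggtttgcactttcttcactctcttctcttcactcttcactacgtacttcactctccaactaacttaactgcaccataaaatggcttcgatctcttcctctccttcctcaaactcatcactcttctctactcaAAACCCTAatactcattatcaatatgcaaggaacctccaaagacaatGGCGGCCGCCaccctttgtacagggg
The CRF7 window holds a dehydration-responsive element core, the HRD window a telobox and overlapping GCC boxes, and the ORA47 window none of the 4 motifs. The annotated HRD gene has no untranslated region before its coding sequence. Its GCC boxes lie after the gene start and thus in coding sequence, whereas its telobox lies before the start.

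H2Aub was present on most AP2/ERF-domain members before any loss of UBP5. In Col-0, H2Aub marked 82 of the 99 (82.8%), against 46.8% of all protein-coding genes. In ubp5, 83 of the 99 (83.8%) were marked, against 69.0% of all genes. The count of these members differed by 1 between genotypes, but not at every setting. With each list reduced to its strongest peaks of the same total length, 66 members (66.7%) were marked in Col-0 and 56 (56.6%) in ubp5, against 29.2% and 32.9% of all genes. That length was the 10.9 Mb of the ubp5 replicate 2 list, which stayed whole while every other H2Aub list was cut. Without ubp5 replicate 1 or without ubp5 replicate 3 the count of marked members was 63 in ubp5, since the sparse replicate 2 list then had to hold the peak. Over the whole list of 151 the counts were 113 for Col-0 and 124 for ubp5, and 80 for ubp5 without either of those 2 libraries.

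Library by library, H2Aub peaks lay on 72, 83 and 89 of the 99 AP2/ERF-domain members in Col-0 replicates 1, 2 and 3, and on 83, 63 and 90 in ubp5 replicates 1, 2 and 3. These counts correspond to 72.7%, 83.8% and 89.9% in Col-0 and to 83.8%, 63.6% and 90.9% in ubp5. The same libraries had a peak on 33.3%, 46.5% and 59.0% of all genes in Col-0 and on 69.4%, 40.1% and 78.8% in ubp5. The members' share was above that of all genes in each of the 6 libraries, and the ranges of the 2 genotypes overlapped. Of the 44 relatives outside the rule, H2Aub lay on 37 (84.1%) in Col-0 and on 39 (88.6%) in ubp5.

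**Figure D1:**
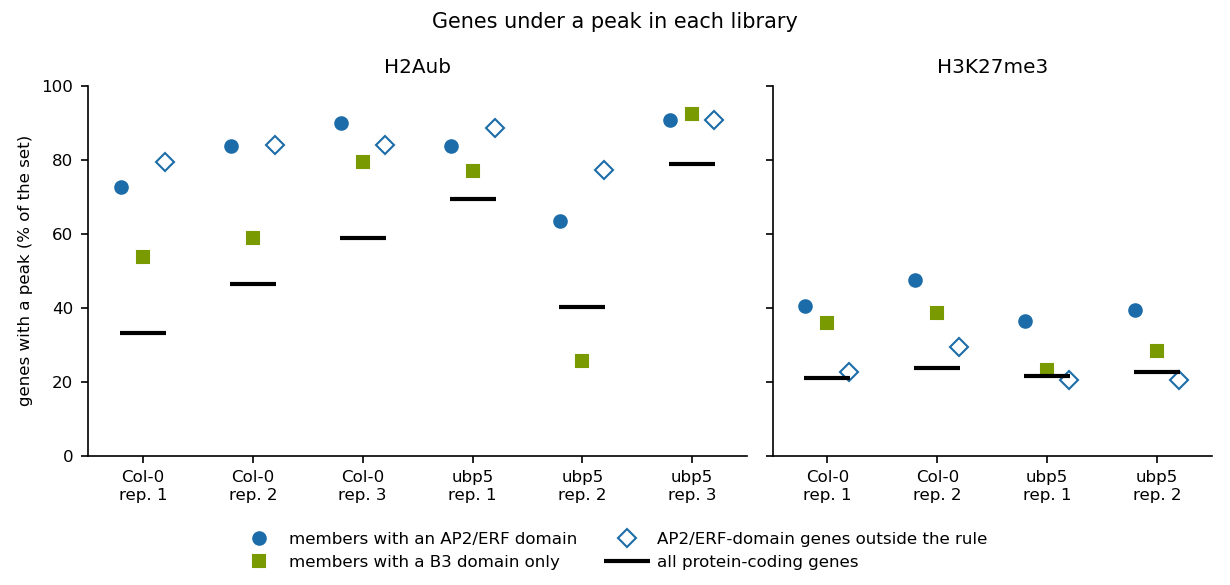
Percentage of each gene set with a peak (vertical axis, 0 to 100%) in each of the 6 H2Aub and 4 H3K27me3 libraries (horizontal axis). Filled circles are the 99 members with an AP2/ERF domain, squares the 39 members with a B3 domain only, diamonds the 44 AP2/ERF-domain genes outside the rule and black bars all 27444 genes; the circles lie above the bars in every library.

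The H3K27me3 mark lay on 40 of the 99 (40.4%) in Col-0, against 20.6% of all genes, and on 36 (36.4%) in ubp5, also against 20.6% of all genes. The 2 Col-0 libraries had an H3K27me3 peak on 40 and 47 members (40.4% and 47.5%), and the 2 ubp5 libraries on 36 and 39 (36.4% and 39.4%). The lowest Col-0 value lay 1 gene above the highest ubp5 value. Over all genes the shares were 21.0% and 23.7% for the Col-0 libraries against 21.6% and 22.5% for the ubp5 libraries, which overlapped. Of the 44 relatives, 10 (22.7%) carried H3K27me3 in Col-0 and 8 in ubp5. Both marks lay together on 36 of the 99 members (36.4%) in Col-0, against 14.2% of all genes, and on 32 (32.3%) in ubp5, against 15.3% of all genes. No member gained both marks in ubp5, against 0.813% of all genes.

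H2Aub was not limited to the members with H3K27me3. In Col-0, 36 of the 40 H3K27me3-marked AP2/ERF-domain members (90.0%) and 46 of the 59 others (78.0%) were marked by H2Aub. Over all genes the corresponding shares were 69.0% and 41.0%. Both shares of the members were above the higher share over all genes.

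The gene models of the family are short and often lack introns. The 99 members had a median length of 1248 bp and 68 of them (68.7%) had a single exon, whereas all genes had a median of 2078 bp and 21.5% a single exon. Among single-exon genes, H2Aub marked 60 of 68 members (88.2%) in Col-0 and 57.6% of all 5911 such genes, and in ubp5 59 members (86.8%) and 66.2%. H3K27me3 marked 26 of these 68 members (38.2%) in Col-0 against 27.8% of all single-exon genes. Among genes with more exons, H2Aub marked 22 of 31 members (71.0%) and 43.8% of all genes in Col-0. In Col-0 the H2Aub share was thus higher for single-exon genes, both for members and for all genes. In ubp5, genes with more exons were marked in 77.4% of members and 69.7% of all genes, the latter above the single-exon share. H3K27me3 in Col-0 marked 14 of the 31 members with more exons (45.2%), above the single-exon members. For H2Aub the members stood above all genes of either structure in both genotypes. The part of gene structure in the difference between genotypes was not tested.

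Where H2Aub was present, it covered most of the gene. In marked genes the median of the mean covered share of the length was 74.8% for the members in Col-0 and 64.1% in ubp5, against 47.8% and 35.5% for all genes. The mean counts libraries without a peak as 0 and includes ubp5 replicate 2, and no median without that library is given. Of the summed length of the 99 members, 43.8%, 52.2% and 61.6% was covered in Col-0 replicates 1, 2 and 3. In ubp5 it was 53.0%, 33.6% and 60.2%, the lowest being replicate 2. H3K27me3 covered a median of 98.0% of the marked members in Col-0 and 94.4% in ubp5, against 91.1% and 86.0%. When each gene was cut into 10 equal intervals from its start, H2Aub on the members was highest in interval 4, or in interval 5 in ubp5 replicate 2, and lower towards both ends. In Col-0, 80.3%, 91.5% and 94.1% of interval 4 was covered in replicates 1, 2 and 3. Over all genes H2Aub was highest in interval 2, which in Col-0 replicate 1 was equal to interval 3, and it declined towards the end of the gene. Single-exon genes of the whole genome were highest in interval 3 or 4.

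**Figure D2:**
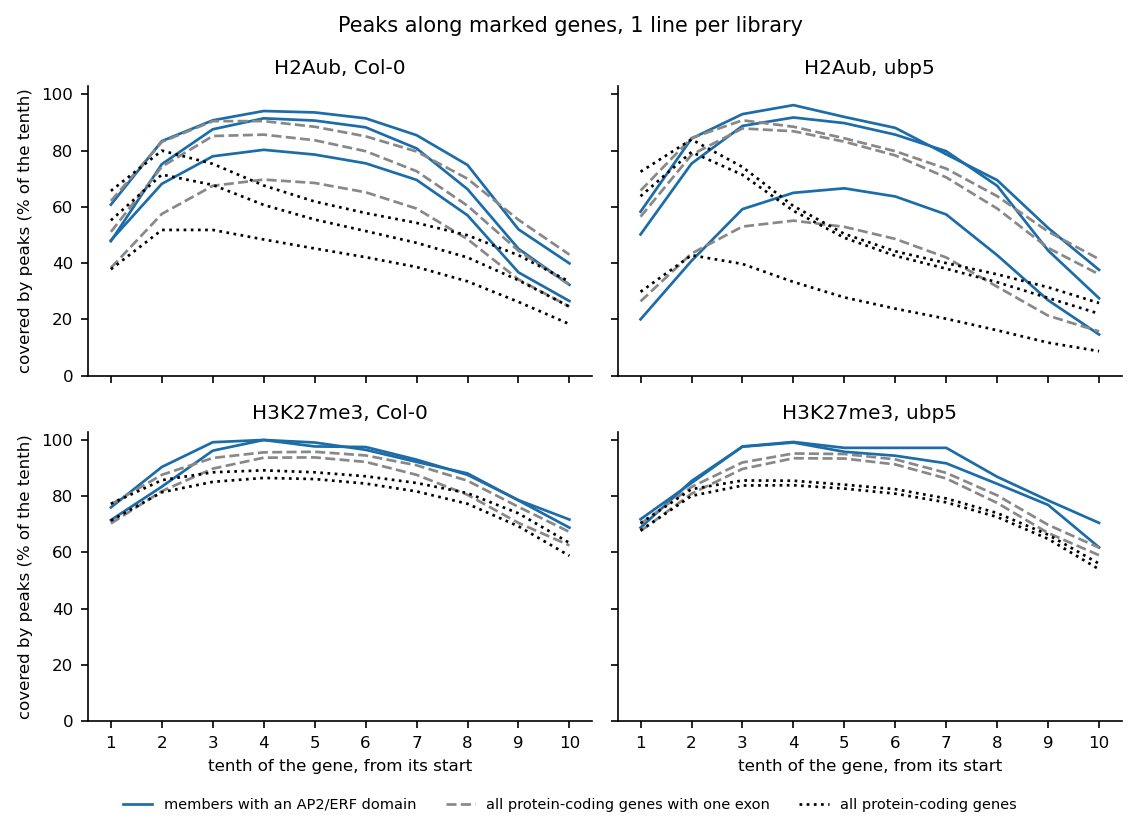
Mean percentage of each of 10 equal intervals of the gene covered by peaks (vertical axis) from the gene start to its end (horizontal axis), over the genes marked in that genotype, with 1 line per library. Solid lines are AP2/ERF-domain members, dashed lines all single-exon genes and dotted lines all genes; H2Aub on the members reaches its highest coverage in the middle of the gene and on all genes near its start.

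The subgroups of the family differed in how they combined the marks. Of the 99 members, 6 belonged to none of the subgroup lists. All 5 members of the meristem and organ initiation group (DRN, LEP, PUCHI, ERF87 and AT1G80580) carried both marks in both genotypes. DRN, which acts in embryo and shoot patterning, was covered by H3K27me3 over its whole 1248 bp in all 4 libraries and by H2Aub over 1227, 1070 and 1134 bp in Col-0 and 1068, 1160 and 1210 bp in ubp5. PUCHI, a gene of lateral root and flower initiation, was covered by H3K27me3 over its whole 1515 bp and by H2Aub over 1232, 1044 and 1165 bp in Col-0 and 1241, 0 and 1290 bp in ubp5. Its values overlapped between genotypes, and only ubp5 replicate 2 lacked the peak.

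The SHINE genes, activators of cuticular wax and cutin synthesis, showed the same combination: SHN1, SHN2 and SHN3 carried both marks in both genotypes and the remaining gene of that list, AT5G25190, carried H2Aub alone. SHN1 was covered by H3K27me3 over its whole 1469 bp in each library and SHN3 over its whole 1605 bp. In the wound and regeneration group X, ERF110, ERF112, ERF114 and ERF115 of the 5 members carried H3K27me3, and all but ERF115 carried H2Aub. ERF115, which drives regeneration of the root stem cell niche, was covered by H3K27me3 over its whole 1287 bp in every library, while H2Aub lay on it only in ubp5 replicate 3, over 229 bp.

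The stress-related ERF and DREB groups carried H2Aub on nearly every gene and H3K27me3 on some. All 12 members of the pathogen and jasmonate group IX carried H2Aub in both genotypes, and 4 carried H3K27me3 in Col-0, ERF15, ESE1, ERF98 and ERF96, of which all but ERF15 carried it in ubp5. ORA59, which integrates jasmonate and ethylene in defence, was covered by H2Aub over 747, 774 and 821 bp in Col-0 and 790, 677 and 828 bp in ubp5 and had no H3K27me3. ERF1, a direct target of the ethylene factor EIN3, was covered over 488, 478 and 491 bp in Col-0 and 489, 196 and 517 bp in ubp5, again without H3K27me3. Of the 9 RAP2.4 and WIND genes, the latter known from wound-induced callus formation, 8 carried H2Aub in each genotype and 1, AT4G13620, carried H3K27me3. The 14 genes around TINY and HARDY all carried H2Aub in Col-0 and 13 did in ubp5, with H3K27me3 on 7 in each genotype.

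Some groups carried little or no H3K27me3. None of the 6 cytokinin response factors, the 4 oxygen-sensing ERFs of group VII, the 3 RAV genes and the 2 EAR repressors of group VIII was marked by it. In the AP2 subfamily, 8 of 11 members carried H2Aub in Col-0 and 9 in ubp5, and 5 carried H3K27me3 in each genotype, AIL1, ANT, PLT1, PLT2 and SNZ. The root stem cell regulators PLT1 and PLT2 lay in long H3K27me3 domains, with H2Aub in some libraries only. PLT1 was covered by H3K27me3 over its whole 3250 bp in every library and by H2Aub over 0, 0 and 1863 bp in Col-0 and 0, 0 and 319 bp in ubp5. ANT, a promoter of organ growth, was covered by H3K27me3 over 2894 and 2796 bp in Col-0 and 2694 and 2894 bp in ubp5, and by H2Aub over 1329, 2743 and 2894 bp in Col-0 and 2115, 0 and 1510 bp in ubp5. The floral organ gene AP2 itself had no H3K27me3, and H2Aub covered 507, 631 and 1271 bp of it in Col-0 and 646, 492 and 1230 bp in ubp5.

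**Figure D3:**
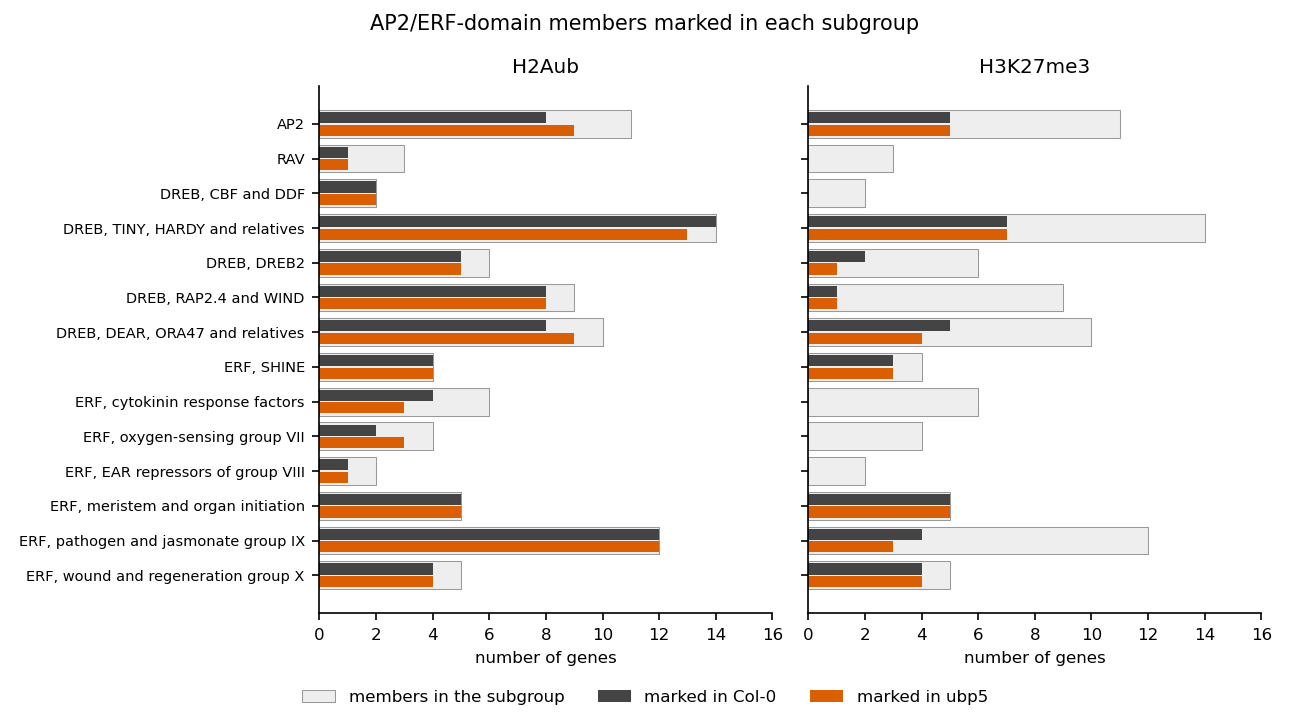
Number of AP2/ERF-domain members marked by H2Aub (left) and H3K27me3 (right) in each subgroup. Pale bars give the size of the subgroup, dark bars the members marked in Col-0 and orange bars those marked in ubp5; the bars for Col-0 and ubp5 differ by at most 1 gene in every subgroup.

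The main question of the design is whether loss of UBP5 altered the marks. For H2Aub, 6 of the 99 members (6.06%) were marked only in ubp5, against 25.1% of all genes. These were WIND2, CRF7, CRF12, ORA47, PLT2 and RAP2.12. WIND2 also had a peak of 467 bp in Col-0 replicate 2, longer than its ubp5 peaks of 377 and 417 bp. PLT2 also had a peak of 540 bp in Col-0 replicate 3, beside ubp5 peaks of 527 and 605 bp. By definition, only members not marked in Col-0 could enter the ubp5-only class, and the reason for its lower share was not tested. Of the 17 members not marked in Col-0, 6 (35.3%) were marked in ubp5, against 47.1% of all genes not marked in Col-0 and 30.6% of such single-exon genes. A further 5 members (5.05%) were marked only in Col-0, against 2.87% of all genes. Of the 82 members marked in Col-0 they made up 6.10%, against 6.15% of all 12839 genes marked in Col-0. The 5 members were WIND3, CRF9, CRF10, HRD and CRF11. All of these but CRF10 also had a peak in ubp5 replicate 3, which covered 319 bp of CRF9 and 993 bp of CRF11. Without ubp5 replicate 1, or without ubp5 replicate 3, the counts were 2 (2.02%) for the ubp5-only class and 21 (21.2%) for the Col-0-only class. Over all genes the shares were then 9.56% and 16.3% without replicate 1 and 9.45% and 16.4% without replicate 3. Without Col-0 replicate 2, or without Col-0 replicate 3, the members' counts were 13 (13.1%) and 2 (2.02%), against 37.3% and 1.23%, or 38.1% and 0.991%, of all genes. At the same total peak length, 6 members were of the ubp5-only class, against 13.3% of all genes, and 16 (16.2%) of the Col-0-only class, against 9.56%. The whole list of 151 held 18 genes of the ubp5-only class and 7 of the other.

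A stricter comparison asked for which genes the covered length in every ubp5 library lay outside the Col-0 range. H2Aub was longer in every ubp5 library on 4 of the 99 members (4.04%), against 13.7% of all genes. The length was shorter in every ubp5 library on 10 (10.1%), against 3.51% of all genes. Among single-exon genes, 2 of 68 members (2.94%) were longer and 8 (11.8%) shorter, against 7.33% and 5.31% of all such genes. Among the 77 members marked in both genotypes, ERF112 and AT4G13040 were longer and 9 (11.7%) were shorter, against 13.3% longer and 6.96% shorter of the 12050 genes marked in both. Of all single-exon genes marked in both, 6.83% were longer and 8.48% shorter. The median difference between the ubp5 and Col-0 mean was −50.0 bp over these 77 members, with 23 longer and 53 shorter, and 2.67 bp over the 12050 genes. The ubp5 mean includes replicate 2, and no median without it is given. Summed over the 99 members, H2Aub covered 63251, 75392 and 89002 bp in Col-0 replicates 1, 2 and 3. The sums for ubp5 were 76613, 48615 and 86940 bp, so only replicate 2 lay under the Col-0 range. Without ubp5 replicate 2, 18 members (18.2%) were longer, against 36.9% of all genes, and 10 were shorter, against 3.64%. Without ubp5 replicate 3, 21 members (21.2%) were shorter, against 7.47% of all genes, and without Col-0 replicate 1, 20 (20.2%), against 8.81%. Without Col-0 replicate 3, 7 members (7.07%) were longer, against 19.0%. With 3 against 3 libraries an exact permutation test cannot fall below p = 0.100, the value reached by all 14 of these genes, and after Benjamini-Hochberg adjustment over 27444 genes their adjusted p was 0.582. No single gene passed the test.

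Of the 4 members with longer H2Aub in ubp5, ORA47 and CRF7 were free of it in Col-0. This holds for 2 of the 99 (2.02%), against 4.70% of all genes with a peak in every ubp5 and no Col-0 library. ORA47 (chr1:28143851-28145058), a regulator of jasmonate synthesis genes, was covered over 0 bp in each Col-0 library and over 667, 482 and 982 bp in ubp5 replicates 1, 2 and 3. The peaks lay on 564, 459 and 588 of its 588 coding bases. CRF7 (chr1:8135180-8136034), a cytokinin response factor, was covered over 0 bp in Col-0 and over 617, 546 and 719 bp in ubp5, including all 480 coding bases in each ubp5 library. For both genes all 3 ubp5 libraries had a peak and all Col-0 libraries were at 0. The peak scores in ubp5 replicates 1, 2 and 3 were 158, 49 and 410 for ORA47 and 151, 39 and 391 for CRF7. At a score over 60, replicate 2 thus had no peak on either gene. At that setting 1 of the 99 members (1.01%) was longer in every ubp5 library, against 5.56% of all genes. Neither ORA47 nor CRF7 had an H3K27me3 peak in any library. No H2Aub peak on CRF7 reached its printed start window, the nearest edge being at position 8135928, whereas the 2778 bp peak of ubp5 replicate 3 spanned the whole window of ORA47.

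ERF112 (chr2:14258509-14260904), of group X, had the largest difference among the AP2/ERF-domain members of this class. H2Aub covered 616, 509 and 729 bp in Col-0 (618 ± 110 bp, SD, n = 3) and 1779, 1297 and 1533 bp in ubp5 (1536 ± 241 bp, n = 3). The Col-0 peaks covered 388, 402 and 476 of the 732 coding bases and at most 111 of the 725 intronic bases, and the ubp5 peaks covered 607 to 725 of the latter. H3K27me3 covered it over 1837 and 2221 bp in Col-0 and 1889 and 2110 bp in ubp5, which overlapped. The other gene, AT4G13040, was covered over 906, 1046 and 1055 bp in Col-0 and 1250, 1120 and 1202 bp in ubp5. When each list was reduced to its strongest peaks with the same total length, ORA47 and AT4G13040 remained longer in ubp5, and 10.9% of all genes were so called.

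**Figure D4:**
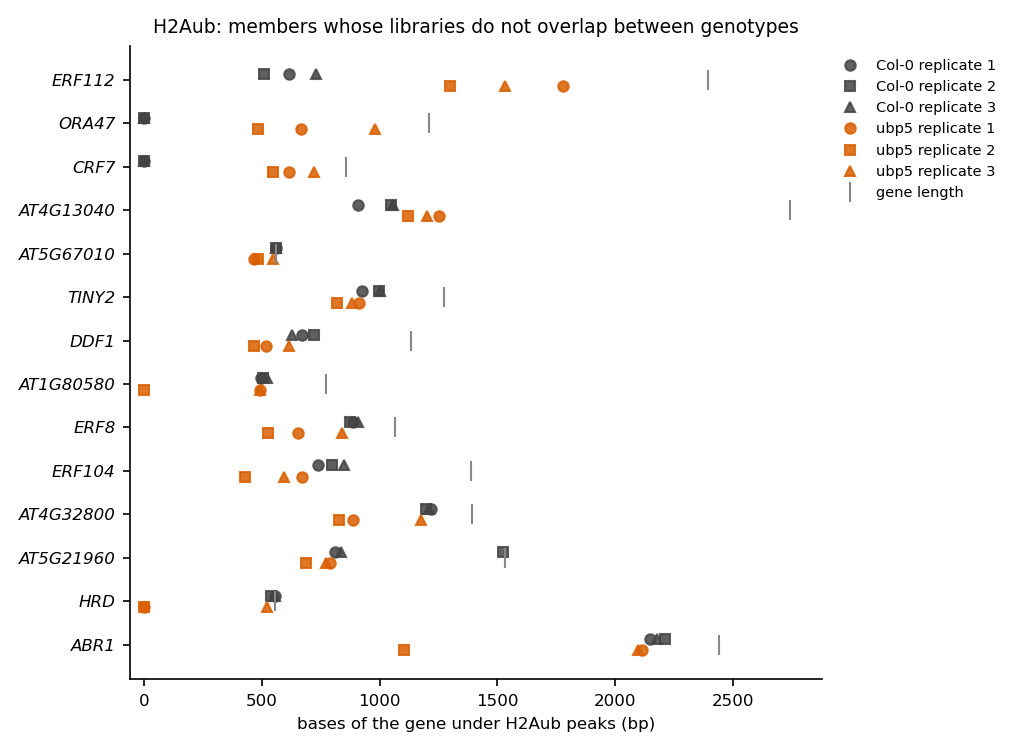
Bases of the gene under H2Aub peaks (horizontal axis, bp) for the 14 AP2/ERF-domain members whose Col-0 and ubp5 libraries did not overlap, with 1 symbol per library. Grey symbols are Col-0, orange symbols ubp5 and vertical ticks the gene length; ERF112, ORA47, CRF7 and AT4G13040 lie to the right in ubp5 and the other 10 genes to the left.

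Among the 10 members with shorter H2Aub in ubp5, HRD (chr2:15294303-15294857), known for its effect on drought tolerance, was the only one without a peak in more than 1 ubp5 library. H2Aub covered 555, 538 and 555 of its 555 bp in Col-0 and 0, 0 and 521 bp in ubp5. Replicates 1 and 2 of ubp5 were at 0, and replicate 3 lay just under the Col-0 values. The HRD gene body stayed under H3K27me3, with 555 and 555 bp in Col-0 and 534 and 555 bp in ubp5. The H3K27me3 peaks that reached beyond the gene were however 3636 and 3797 bp long in Col-0 and 1403 and 1675 bp in ubp5. No member had a peak in every Col-0 library and in no ubp5 library, a pattern found in 0.189% of all genes.

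ABR1, named as a repressor of abscisic acid responses, was covered by H2Aub over 2150, 2212 and 2176 bp in Col-0 and 2114, 1105 and 2097 bp in ubp5. ERF104, a substrate of the flagellin-responsive kinase MPK6, was covered over 738, 796 and 848 bp in Col-0 and 668, 430 and 593 bp in ubp5. ERF8, a repressor with an EAR motif, was covered over 887, 874 and 910 bp in Col-0 and 651, 525 and 839 bp in ubp5. In each of the 3 genes ubp5 replicate 2 was the lowest and the other ubp5 libraries also lay under the Col-0 range. DDF1, a stress regulator that reduces gibberellin, had 672, 723 and 627 bp in Col-0 and 516, 468 and 613 bp in ubp5. The remaining members were AT4G32800, TINY2, AT5G21960, AT1G80580 and AT5G67010, with mean differences from −306 to −61.3 bp. At the same total peak length, 9 of the 10 genes, all but AT1G80580, were still shorter in ubp5. At that setting 17 members (17.2%) were shorter, against 6.43% of all genes. The trimming kept all 9786 peaks of ubp5 replicate 2, but 6781 and 6330 peaks of ubp5 replicates 1 and 3. Of Col-0 replicates 1, 2 and 3 it kept 7798, 7282 and 5823 peaks. DDF1 then had 0, 468 and 0 bp in ubp5, and ERF104 had 0, 430 and 0 bp. The setting can thus shorten ubp5 values by itself and is no separate check of them.

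For H3K27me3, 5 of the 99 members (5.05%) were marked only in Col-0, against 2.98% of all genes, and 1 (1.01%) only in ubp5, against 3.00%. Of the genes marked in Col-0, 5 of 40 members (12.5%) were not marked in ubp5, against a higher 14.4% of all 5663. Of those not marked in Col-0, 1 of 59 members (1.69%) was marked in ubp5, against 3.77% of all genes. H3K27me3 was shorter in both ubp5 libraries on 13 members (13.1%), against 8.10% of all genes, and longer on 4 (4.04%), against 3.48%. Among genes marked in both genotypes, however, 8 of 35 members (22.9%) and 30.7% of all genes were shorter. Without Col-0 replicate 1, 11 members (11.1%) were marked only in Col-0, against 5.17% of all genes, and 23 (23.2%) were shorter, against 13.0%. At that setting none was marked only in ubp5, against 2.16%. Without ubp5 replicate 1, 3 (3.03%) were marked only in ubp5, against 4.01%, and without Col-0 replicate 2, 7 (7.07%) were longer, against 6.05%. With 2 against 2 libraries an exact permutation test cannot fall below p = 0.333, and the adjusted p was 1.00 for every gene, so no gene passed.

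H3K27me3 was present in both Col-0 libraries and absent from both ubp5 libraries on 4 members (4.04%), against 1.79% of all genes. AT3G60490 (chr3:22349308-22350458), of the TINY group, was covered over 871 and 906 bp in Col-0 and 0 and 0 bp in ubp5. The 2 Col-0 peaks lay on 710 and 745 of its 771 coding bases and on all 161 bases of the 3′ untranslated region. H2Aub on this gene covered 1151, 1029 and 1151 of 1151 bp in Col-0 and 1151, 0 and 1151 bp in ubp5, so H2Aub remained in the ubp5 libraries except replicate 2. DREB2F (chr3:21332774-21333918), a relative of the heat and drought regulators DREB2A and DREB2B, was covered by H3K27me3 over 680 and 649 bp in Col-0 and 0 and 0 bp in ubp5. Its Col-0 peaks had scores of 40 and 66, and H2Aub covered 807, 855 and 884 bp in Col-0 and 981, 0 and 914 bp in ubp5.

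AT1G77640 was covered by H3K27me3 over 457 and 601 bp in Col-0 and 0 and 0 bp in ubp5. AT5G67010 was covered over 507 and 559 of 559 bp in Col-0 and 0 and 0 bp in ubp5, and it was, with AT5G21960, 1 of 2 AP2/ERF-domain members with shorter values of both marks in ubp5. AT5G21960 was covered by H3K27me3 over its whole 1532 bp in both Col-0 libraries and over 687 and 1116 bp in ubp5. ERF15, the remaining member marked only in Col-0, had 825 and 635 bp in Col-0 and 0 and 453 bp in ubp5. At the same total peak length, AT3G60490, AT1G77640, AT5G67010 and ERF15 were still marked only in Col-0, and DREB2F was not.

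The other members with shorter H3K27me3 in ubp5 were DREB26, ERF110, DREB2G, ERF87, AT1G71520, ESE1 and ERF98, with mean differences from −240 to −23.5 bp. ESE1 and ERF98 are neighbours and lay under a single peak in every library except H2Aub of ubp5 replicate 2, for H3K27me3 in Col-0 replicate 1 chr3:8287956-8290158, so they are not separate observations. The 4 members with longer H3K27me3 were LEP, SNZ, AT1G33760 and TINY. LEP, which acts in leaf and meristem development, had 757 and 797 bp in Col-0 and 1120 and 805 bp in ubp5. SNZ, a floral repressor of the AP2 subfamily, had 1863 and 1908 bp in Col-0 and 1941 and 2053 bp in ubp5. The gene marked only in ubp5, AT5G52020, had 0 and 647 bp in Col-0 and 492 and 582 bp in ubp5, so its libraries overlapped. None of the 99 had H3K27me3 in both ubp5 libraries and in no Col-0 library, against 2.09% of all genes.

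**Figure D5:**
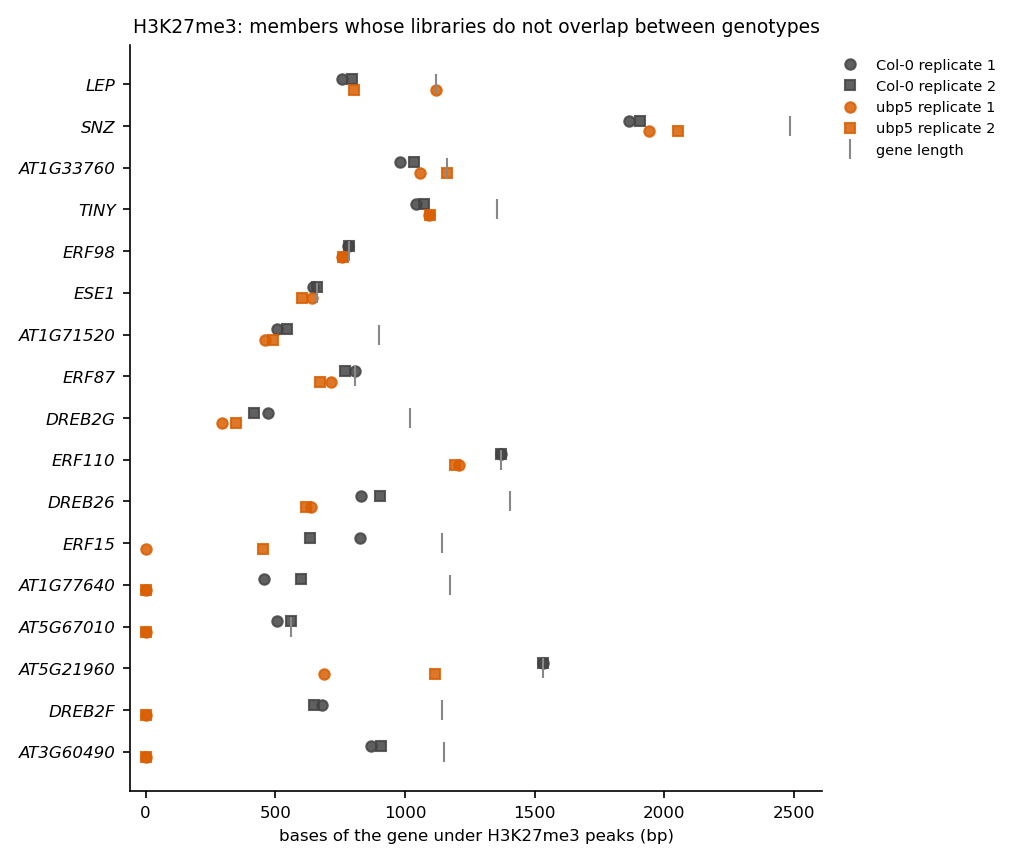
Bases of the gene under H3K27me3 peaks (horizontal axis, bp) for the 17 AP2/ERF-domain members whose Col-0 and ubp5 libraries did not overlap, with 1 symbol per library. Grey symbols are Col-0, orange symbols ubp5 and vertical ticks the gene length; AT3G60490, DREB2F, AT5G67010 and AT1G77640 lie at 0 in both ubp5 libraries and between 457 and 906 bp in Col-0.

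The start windows were searched for the 4 motifs in all genes. The GCC box was found in 6 of the 99 members (6.06%) and in 2.57% of all windows, the dehydration-responsive element core in 14 (14.1%) and 15.0%, the repeat GAGAGAGA in 14 (14.1%) and 8.38%, and the telobox in 5 (5.05%) and 6.22%. Telobox and GAGA repeats were included because both have been linked to recruitment of Polycomb repressive complex 2. All 5 telobox windows belonged to the 35 members marked by H3K27me3 in both genotypes (14.3%), and none to the 58 members marked in neither. Over all genes the shares were 8.30% of the 4845 marked in both genotypes and 5.74% of the 20959 marked in neither. The repeat GAGAGAGA had the opposite order among the members, with 4 of the 35 (11.4%) and 10 of the 58 (17.2%). Over all genes its shares were 8.92% of those marked in both genotypes and 8.34% of those marked in neither. A match in these windows is a description of the sequence and was not tested for binding. The 5 sites are printed with 20 bases on each side, or fewer where the window ended, and with the telobox in capitals.
AT1G12630, chr1:4298626-4298673, plus strand: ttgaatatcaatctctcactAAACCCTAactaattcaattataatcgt
AIL1, chr1:27331306-27331353, plus strand: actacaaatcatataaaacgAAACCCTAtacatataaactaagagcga
HRD, chr2:15294853-15294900, minus strand: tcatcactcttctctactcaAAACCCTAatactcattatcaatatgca
PLT1, chr3:7300447-7300493, plus strand: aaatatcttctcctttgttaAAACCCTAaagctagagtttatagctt
ERF115, chr5:2305511-2305558, plus strand: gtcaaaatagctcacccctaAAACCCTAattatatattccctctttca
All 5 teloboxes lay on the gene's own strand, 4 of them 20 to 55 bases before the gene start and that of PLT1 from base 24 after it. Of the 5 genes, AIL1, PLT1 and ERF115 were covered by H3K27me3 over the whole gene in every library. H2Aub differed among them: AIL1 carried it in both genotypes, HRD only in Col-0, and AT1G12630, PLT1 and ERF115 in neither.

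H3K27me3 covered the whole gene in every library on 13 of the 99 members (13.1%), against 5.40% of all genes. For H2Aub this held for 1 member (1.01%), against 0.729% of all genes: AT1G01250, of the TINY group, whose 891 bp were covered completely by both marks in all 10 libraries. At the other end, 4 members had no H2Aub peak in any library, AT1G12630, AT1G51120, DREB2E and AT4G31060. Of these, AT1G12630 was covered by H3K27me3 over 776 and 795 bp in Col-0 and 719 and 781 bp in ubp5, and the other 3 had no peak of either mark.

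The group VII ERFs, whose proteins are degraded in the presence of oxygen, differed among themselves. HRE2 was covered by H2Aub over 879, 869 and 885 bp in Col-0 and 927, 865 and 927 bp in ubp5. RAP2.12 had none in Col-0 and 531, 0 and 560 bp in ubp5, and RAP2.3 had a peak in Col-0 replicate 3 alone, of 294 bp. Among the cytokinin response factors the counts hid opposite patterns, with CRF7 and CRF12 marked only in ubp5 and CRF9, CRF10 and CRF11 only in Col-0. CRF12 had 0 bp in Col-0 and 607, 0 and 796 bp in ubp5, and CRF10 had 0, 328 and 961 bp in Col-0 and 0 bp in each ubp5 library. Only CRF7 did not overlap between genotypes. The wound-related WIND3 was covered over 1063, 1125 and 1168 bp in Col-0 and over 0, 0 and 1224 bp in ubp5, so replicates 1 and 2 of ubp5 lacked the peak and replicate 3 was the highest of all 6 libraries.

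The components that perceive and transmit ethylene, upstream of the ERFs, were given for comparison. Of 12 listed genes, 2 carried H2Aub in Col-0, ETR2 and EIL1, against 46.8% of all genes, and 7 in ubp5, against 69.0%. Of the 12, 6 were marked only in ubp5 and 1, EIL1, only in Col-0, against 25.1% and 2.87% of all genes. Of all genes not marked in Col-0, 47.1% were marked in ubp5. None of the 12 carried H3K27me3 in either genotype, against 20.6% of all genes in each. The receptor genes ERS2 and ETR1 were longer in every ubp5 library, a pattern found in 13.7% of all genes. ERS2 was covered over 0 bp in each Col-0 library and 2196, 2007 and 2168 bp in ubp5, and ETR1 over 0 bp in Col-0 and 619, 467 and 701 bp in ubp5. No listed gene was shorter in every ubp5 library.

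The members with a B3 domain alone were less often marked by H2Aub than those with the AP2/ERF domain in 5 of the 6 libraries, the exception being ubp5 replicate 3. Of the 39, Col-0 seedlings had H2Aub on 23 (59.0%) and ubp5 seedlings on 30 (76.9%), against 46.8% and 69.0% of all genes, with 8 (20.5%) in the ubp5-only class, against 25.1%. In ubp5 replicate 2 only 10 of them (25.6%) had a peak, against 40.1% of all genes in that library. H3K27me3 marked 14 (35.9%) in Col-0 and 9 (23.1%) in ubp5, against 20.6% of all genes in each. The seed maturation regulators of this class were under H3K27me3 in both genotypes. ABI3 had 3661 and 3757 bp of H3K27me3 in Col-0 and 3634 and 3709 bp in ubp5, with H2Aub over 3314, 3103 and 3210 bp in Col-0 and 3130, 3041 and 3438 bp in ubp5. FUS3 was covered by H3K27me3 over its whole 2385 bp in every library, and LEC2 over 3010 bp in every library except 2889 bp in ubp5 replicate 1. Both had little H2Aub, with at most 358 bp in any library.

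H3K27me3 was marked only in Col-0 on 6 of the 39 (15.4%), against 2.98% of all genes. Of these, AT1G49475, ABS2, AT3G11580 and AT5G57720 (10.3%) had a peak in both Col-0 libraries and in no ubp5 library, against 1.79%. AT3G11580 had the largest H3K27me3 difference of all 151 members, with 961 and 1031 bp in Col-0 and 0 and 0 bp in ubp5, and its relative DPA4, a regulator of leaf margin growth, had 928 and 974 bp in Col-0 and 0 and 478 bp in ubp5. On both genes H2Aub was also shorter in ubp5. AT3G11580 had 744, 704 and 1358 bp in Col-0 and 642, 640 and 678 bp in ubp5, and DPA4 had 1763, 1963 and 1973 bp in Col-0 and 1557, 1241 and 1642 bp in ubp5. The opposite was seen on AT5G58280, the only one of the 151 members longer in ubp5 for both marks. It had 0 bp of H3K27me3 in Col-0 and 799 and 818 bp in ubp5, and 797, 1308 and 1294 bp of H2Aub in Col-0 and 1409, 1355 and 1545 bp in ubp5.

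Of the 13 members with neither domain, 4 (30.8%) were longer for H2Aub in every ubp5 library, against 13.7% of all genes. They were LPPepsilon2, LPPbeta and LPPgamma, phosphatases of lipid phosphates, and AT5G26760. LPPepsilon2 had 0 bp in each Col-0 library and 1019, 409 and 1098 bp in ubp5, and AT5G26760 had 0 bp in Col-0 and 726, 930 and 664 bp in ubp5. One gene of this class, ROD1, which acts in seed oil composition, was shorter, with 1601, 1789 and 1707 bp in Col-0 and 701, 0 and 1551 bp in ubp5. H3K27me3 marked 3 of the 13 in each genotype, AT3G15830, LPP4 and AT5G44350.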

How the data were processed

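Chromatin of Col-0 and ubp5 seedlings was profiled in 16 samples of 12-day-old seedlings, of which 10 have a peak list and 6 are inputs without one. Per the methods of the study, the authors mapped paired-end reads to TAIR10 with STAR (2.7.8a), removed organelle reads, duplicates (Picard) and reads with more than one position and called broad peaks with MACS3 (3.0.0, per the submitters' notes) for each immunoprecipitate, without pooling replicates in these files. The deposited lists give a score, a fold enrichment ratio over background, and a −log10 p and −log10 q for each peak. The score was used for filtering and the fold ratio was not compared between libraries. The peak lists give no read depth. The study lists reads per library elsewhere, and these values were not used here. The H2Aub lists held no peak with a score under 30 and the H3K27me3 lists did, for a reason the sources do not state, so peaks with a score over 30 were used from all lists.

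Genes, products, InterPro domains and sequence came from the RefSeq annotation of TAIR10.1. Covered bases of every gene were computed per library with Python (3.11.15) and NumPy (2.4.6). Libraries were the replicates. Covered length was compared by an exact two-sided permutation test of the mean difference, adjusted by Benjamini-Hochberg over 27444 genes. Counts over members were set beside all genes without a test. The code was checked on simulated data. The alternatives tried were no score minimum, a minimum of 60, lists trimmed to equal total length, a window of 500 bp on each side of the gene start, at least 50% of the gene covered, a peak in every library, each library left out in turn and a replicate block. Replicate numbers were not taken as pairs. Members, subgroup lists and pathway lists were chosen with earlier results of these data known; the split by domain was added after the data were seen. The text names the listed examples, the members with the largest differences or the longest coverage, and the members of main counts of 5 or fewer; others were chosen after their values were seen.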

Additional observations from a re-analysis of the deposited data

How the results depend on the processing

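Of the counts over the 151 members, 112 were within 1.5 times their value under the alternatives tried and 38 were not. Those that kept within this range everywhere were the genes marked by H2Aub in Col-0, by H3K27me3 in either genotype and by both marks in Col-0. The H2Aub lists were trimmed to the length of the ubp5 replicate 2 list, which stayed whole. With lists trimmed to equal total length, 67 members instead of 124 were marked by H2Aub in ubp5, 8 instead of 18 only in ubp5 and 27 instead of 7 only in Col-0, 29 instead of 16 were shorter, 4 instead of 2 had H3K27me3 in ubp5 alone and 25 instead of 41 carried both marks in ubp5. With a peak required in every library, 80 were marked by H2Aub in ubp5 and 29 only in Col-0. With at least 50% of the gene required, H2Aub was restricted to Col-0 on 14 members, and H3K27me3 to Col-0 on 7 and to ubp5 on 1. At a score over 60, 3 members instead of 9 had longer H2Aub and 4 instead of 2 had H3K27me3 only in ubp5. With all deposited peaks, 7 instead of 11 had H3K27me3 only in Col-0. Around the gene start, 10 had shorter H2Aub and 3 instead of 5 longer H3K27me3. Leaving out 1 library gave 80 to 124 members marked by H2Aub in ubp5, 5 to 30 only in ubp5, 3 to 38 only in Col-0, 9 to 32 longer and 16 to 31 shorter. For H3K27me3 it gave 1 to 4 only in ubp5, 8 to 18 only in Col-0, 5 to 10 longer and 20 to 33 shorter. The replicate block counted genes by the sign of the same-numbered differences and gave 14 longer and 31 shorter for H2Aub and 6 longer and 22 shorter for H3K27me3. Deviations of same-numbered libraries correlated at −0.050, 0.050 and 0.036 for H2Aub and at 0.064 for H3K27me3 across genes, so the numbers were not taken as pairs. With 2 libraries per genotype, both H3K27me3 pairs give the same value by construction. The values cannot settle whether the libraries were prepared as pairs. Among single genes, 3 differences changed sign: the SNZ H3K27me3 covered bp, ubp5 minus Col-0, was −954 and the NGA2 H3K27me3 covered bp, ubp5 minus Col-0, was 582 at a score over 60, against 112 and −386, and the DREB2G H3K27me3 covered bp, ubp5 minus Col-0, was 86.5 with trimmed lists, against −122. The causes were not tested. Peak ends can depend on read depth, which differed between the H2Aub libraries in the study's listing and was not corrected for here, and a gene without a listed peak may still carry the mark below the calling threshold.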

Other observations

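Genes that act downstream of AP2/ERF factors carried the marks in different combinations. All 5 listed defence targets of ERF1 and ORA59 were marked by H2Aub in both genotypes, against 43.9% of all genes. Of the 5, 4 were also marked by H3K27me3, which marked 20.6% of all genes in each genotype. The defensin genes PDF1.2A and PDF1.2C were under H3K27me3 over their whole length in every library, and PR4 carried H2Aub alone. CHIB, a basic chitinase, had 1445 and 1470 bp of H3K27me3 in Col-0 and 1422 and 1424 bp in ubp5.

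Of the 8 cold regulators and cold-response genes, H2Aub covered 5 in at least 2 Col-0 libraries and 8 in at least 2 ubp5 libraries, against 46.8% and 69.0% of all genes. ICE1, ICE2 and KIN1 were marked only in ubp5, although all 3 had a peak in Col-0 replicate 3. Over all genes, 25.1% were marked only in ubp5, or 47.1% of those not marked in Col-0. H3K27me3 marked 20.6% of all genes in each genotype. COR15A was the only one of the 8 listed genes with H3K27me3, over 975 and 1362 bp in Col-0 and 0 and 763 bp in ubp5. Of the 4 hypoxia genes, PDC1 carried H2Aub in Col-0, ADH1 and HB1 were marked only in ubp5 and SUS4 had no H2Aub peak. The corresponding shares of all genes were 46.8%, 25.1% and 18.5%.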
